A study of Rattus norvegicus with 20 samples.

Results

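The genes described here encode the machinery that docks, primes and fuses synaptic vesicles and dense-core vesicles, together with close relatives that share their names. They were chosen by symbol alone, as genes named Syt, Stx, Vamp, Cplx, Rims or Stxbp with a number, Snap29, Snap47, Snap91, Syn1 to Syn3, Unc13a to Unc13d, Sv2a to Sv2c, Cadps, Rab3 and Nsf, with a mean of at least 10 normalized counts over the 10 libraries of at least 1 comparison. Of 88 such symbols 87 passed, out of 32402 Ensembl genes in the tables, 20849 of which carry a symbol. Cplx4 was left out, with means of 3.59, 2.17 and 5.09 in the 3 tables, and Syt8 passed only in the table of aged DH against aged EH, with a mean of 10.1. Snap25 and Snap23 belong to the same family but were not analysed here. The names beginning with Rab3 also take in 11 Rab GTPases from Rab30 to Rab39a, which act elsewhere in the secretory and endosomal system and are described apart.

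The supraoptic nucleus (SON) of the hypothalamus was sequenced in 4 groups of 5 male Wistar Han rats, which were adult (3 months) or aged (18 months) and either euhydrated (EH), with free access to water, or dehydrated (DH). The labels give DH as 2 days without water, whereas the study's methods give 72 h. The methods also state that rats shared cages and that cages were assigned at random to EH or DH. The labels used here give no cage, so each rat was treated as independent. Each library is poly(A) RNA from punches of both sides of 1 rat. The 3 comparisons are adult DH against adult EH, aged DH against aged EH and aged EH against adult EH, so the last shares its aged EH rats with the second and its adult EH rats with the first. The adult data were published before the aged data, and the methods state that both ages were handled side by side, from the animal work to the sequencing.

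Magnocellular neurons of the SON make the hormones vasopressin and oxytocin, pack them into dense-core vesicles and release them mostly from axon terminals in the posterior pituitary, and also from their cell bodies and dendrites. Fusion is carried out by SNARE proteins, with synaptobrevin (Vamp) on the vesicle and syntaxin (Stx) and SNAP-25 on the plasma membrane. Munc13 (Unc13) and CAPS (Cadps) proteins prime vesicles, complexins (Cplx) hold primed vesicles, synaptotagmins (Syt) sense calcium, and the ATPase NSF takes spent SNARE complexes apart. Synapsins (Syn) tether synaptic vesicles, SV2 proteins sit in the vesicle membrane and Rab3 GTPases guide vesicles to release sites. RNA of terminals that end on SON neurons is mostly not in the punch, since it is made in the cell bodies of the neurons that send them.

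Normalized counts summed to between 25931931 and 28689164 per library, and reads recovered from the adult table to between 24268398 and 28491926. Rats of the same group had a Pearson's r of 0.989 or more across genes, on the log2 scale. Vasopressin and oxytocin marked the punch in every library, with a summed level of 193899 to 473621 normalized counts. Avp was higher in adult DH, with a log2 fold change (LFC) of 0.48 (limma, Benjamini-Hochberg adjusted p = 0.0221), and its LFC in aged DH was 0.21 (adjusted p = 0.502). Together the members held between 1.14% and 1.27% of the counts of a library in all 4 groups. In adult DH 2 of 8 oligodendrocyte markers were called lower (summed level 250147 to 319608 normalized counts, against 261576 to 381832 in adult EH), and 2 of the 8 had an LFC above 0. Of 9 tested markers of all neurons Tubb3 (LFC 0.18) and Uchl1 (0.18) were called higher and Nefl (-0.19) lower. The summed level of that list was 115424 to 121397, against 110373 to 115976 in adult EH. The part of these cells in the values of the members was not tested. In such punches fewer cells of a type and less RNA per cell cannot be told apart.

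In adult DH the synaptotagmins Syt4 and Syt5, the priming factor Unc13a, Rab3d and the Rab3 regulator Rab3gap2 were higher than in adult EH. Their LFCs were 0.20 to 0.45. Lower were the calcium sensor Syt7, the synapsin Syn2, the plasma membrane syntaxin Stx2, the ATPase Nsf and 3 others. Their LFCs were -0.12 to -0.28. Of 86 members tested 12 were called, 5 higher and 7 lower, at a limma adjusted p under 0.05. This is 14.0% of the members, where 12.7% of all 15280 genes tested were called, 7.67% higher and 4.99% lower. At an unadjusted p under 0.05 there were 27 members, where 26.9% of all genes passed. With values scaled to the column sums instead, 5 members were higher and 13 lower.

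In aged DH Sv2b, Unc13c, Syt17, Stx1a, Stx2, Syn2, Syt16 and Stx16 were lower than in aged EH, with LFCs of -0.18 to -0.66. Higher were Syt5, Syt2 and Rab3gap2, with LFCs of 0.14 to 0.29. The calls of Stx1a, Syt16, Syt2 and Rab3gap2 were lost under 9, 12, 11 and 10 of 17 alternative fits. The summed level of 6 markers of excitatory neurons of the telencephalon was lower in aged DH too. The part of those cells in these values was not tested. Of 87 members 11 were called (limma adjusted p under 0.05), which is 12.6%, where 7.29% of all 15346 genes were called, 4.05% higher and 3.25% lower. At an unadjusted p under 0.05 there were 21 members, where 21.4% of all genes passed. The count was 6 to 11 with each rat left out in turn, and it fell to 7 without aged EH rat 1 and to 6 without aged EH rat 5, aged DH rat 1 or aged DH rat 5.

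Between aged EH and adult EH 1 member of 86 was called by limma, Rab30, which was lower, where 5.99% of all 15369 genes were called, 2.69% higher and 3.30% lower. In this comparison 21 members had an unadjusted p under 0.05, which 20.3% of all genes had. The count of 1 became 2 or 3 without aged EH rat 1, 5 or 6 or adult EH rat 5, and 0 without adult EH rat 6.

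**Figure D1:**
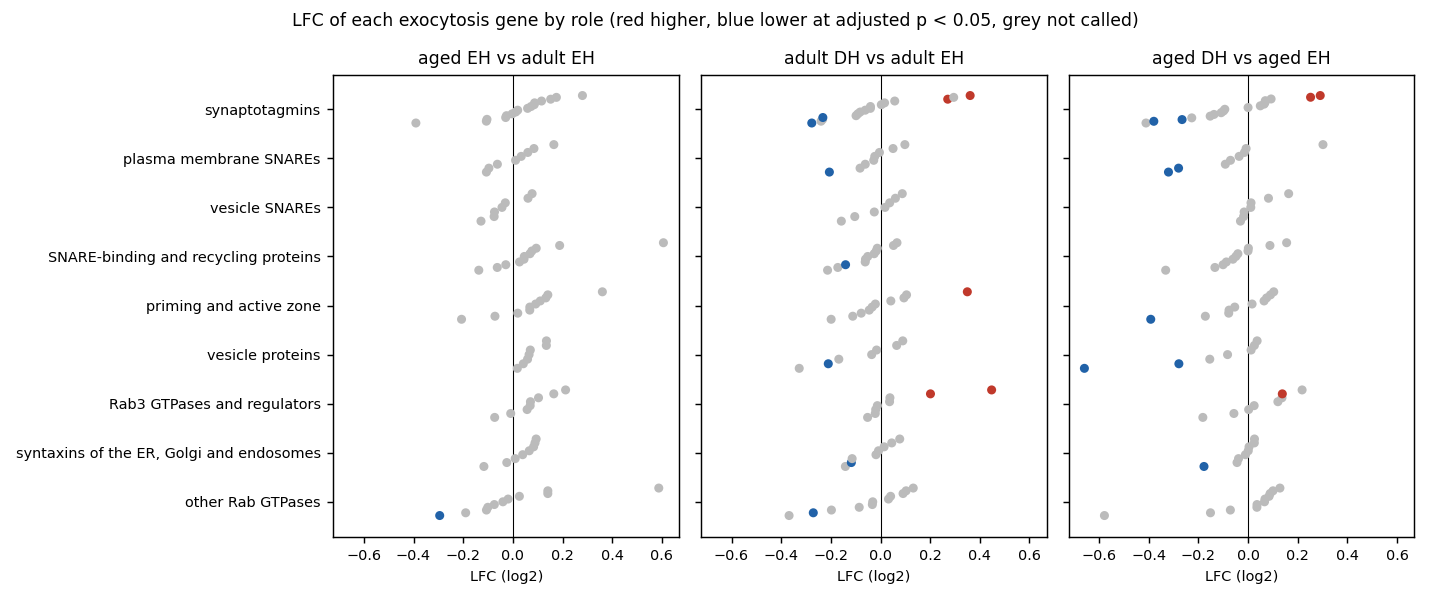
LFC (log2) of every member tested, grouped by role, in aged EH against adult EH (left), adult DH against adult EH (middle) and aged DH against aged EH (right). Each point is a gene, red where it was called higher, blue where it was called lower (limma adjusted p under 0.05) and grey where it was not called. The coloured points number 1, 12 and 11, and the lowest LFC among the called members is that of Sv2b in aged DH, at -0.66.

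Values of single rats are given in the order of the rat numbers in the labels, which are 1, 2, 4, 5 and 6 for both EH groups, 1 to 5 for adult DH and 1, 2, 3, 5 and 6 for aged DH. They are normalized counts, read from the table of the DH comparison of that age, and depend on transcript length, so they are compared between rats and never between genes.

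Of the synaptotagmins, which bind membranes and in many cases calcium, 2 of 16 tested rose and 2 fell in adult DH, and 2 of 17 rose and 2 fell in aged DH. Over all genes 12.7% were called in adult DH and 7.29% in aged DH, and the counts in this and the following roles, of 7 to 17 genes each, are descriptions beside those shares. Syt7, a high-affinity calcium sensor of slow and dense-core vesicle release, had the lowest adjusted p of the members. Its values were 1778, 1856, 1806, 1759 and 1765 in adult EH and 1482, 1466, 1486, 1478 and 1484 in adult DH. Every DH rat lay below every EH rat, and the DH rats lay close together, with an SD of 7.97. The mean fell from 1793 ± 39.6 to 1479 ± 7.97 (SD, n = 5), an LFC of -0.28 with a standard error of 0.029 (limma adjusted p = 3.81e-05). In aged rats Syt7 was 1891, 1702, 1839, 1886 and 1847 in EH and 1633, 1647, 1820, 1509 and 1733 in DH. There the groups overlapped and the LFC of -0.14 (95% interval -0.24 to -0.030) did not pass the test (limma adjusted p = 0.12).

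Syt4, a synaptotagmin found on peptidergic vesicles, was 7845, 7778, 7580, 7904 and 7996 in adult EH and 9273, 9105, 10132, 8754 and 9975 in adult DH. The groups did not overlap, and the spread was wider among the dehydrated rats. Its LFC was 0.27 with a standard error of 0.039 (limma adjusted p = 5.00e-04). In aged rats Syt4 was 8171, 9911, 10387, 9058 and 8576 in EH and 9705, 9061, 9994, 10018 and 9276 in DH. The aged EH rats spanned the whole range of aged DH, and the LFC of 0.064 (95% interval -0.062 to 0.19) was not called. Between aged EH and adult EH its LFC was 0.18 (limma adjusted p = 0.0791), and without aged EH rat 1 it passed the test, at an adjusted p of 0.0204.

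Syt5, a calcium-binding synaptotagmin, was called in both DH comparisons and under every alternative run in them. Its values were 4190, 3624, 3752, 3845 and 3433 in adult EH and 4658, 4069, 5228, 5084 and 5220 in adult DH. A single adult DH rat, number 2, lay below the highest EH rat. The LFC was 0.36 (standard error 0.068, limma adjusted p = 0.00361). In aged rats Syt5 was 4428, 4326, 4789, 4431 and 3820 in EH and 4853, 5686, 5252, 5391 and 5437 in DH, without overlap. The LFC was 0.29 (standard error 0.055, limma adjusted p = 0.00594). Between aged EH and adult EH the LFC was 0.15 (adjusted p = 0.156), which passed the test without aged EH rat 6, at 0.0443.

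Syt9, a calcium sensor of transmitter and hormone release, was 843, 685, 803, 716 and 834 in adult EH and 983, 775, 1078, 862 and 1087 in adult DH. The groups overlapped, and the LFC of 0.29 missed the threshold in limma (adjusted p = 0.0527). It passed on the recovered reads with edgeR and DESeq2, and without adult DH rat 2 or 4, with adjusted p down to 0.012. In aged rats the Syt9 LFC was 0.092 (95% interval -0.17 to 0.36). Between aged EH and adult EH it was 0.28 (limma adjusted p = 0.229), and 0.0109 was the adjusted p without aged EH rat 6, the lowest of its group.

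Syt2, the fast calcium sensor of many brainstem synapses, had LFCs of opposite sign at the 2 ages. Its values were 932, 1046, 971, 874 and 884 in adult EH and 880.3, 1033, 728, 729 and 675 in adult DH. Adult DH rat 2 stood with the highest EH rats and the groups overlapped. The LFC of -0.23 was not called (limma adjusted p = 0.149), but was without that rat, at 0.0169. In aged rats Syt2 was 1016, 947, 1056, 1014 and 1164 in EH and 1283, 1094, 1256, 1136 and 1432 in DH, again with overlap. The LFC of 0.25 was just past the threshold (limma adjusted p = 0.0489). The call was lost under 11 of 17 alternatives, among them without aged EH rat 1, 2, 4 or 5 or aged DH rat 1, 3, 5 or 6, with adjusted p up to 0.113.

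Syt17, a synaptotagmin relative linked to trafficking rather than to fast fusion, was 1239, 1286, 1204, 1075 and 1075 in aged EH and 1100, 824, 878, 834 and 895 in aged DH. Dehydrated rat 1 lay among the EH rats and the other 4 below all of them. The LFC was -0.38 (standard error 0.078, limma adjusted p = 0.00875). In adult rats Syt17 was 1104, 1007, 1178, 1307 and 1023 in EH and 1035, 859, 1004, 864 and 989 in DH. That LFC of -0.24 lay at the threshold (limma adjusted p = 0.0538) and passed it under 7 of 19 alternatives, among them without adult EH rat 2 or 6 or adult DH rat 1, with adjusted p down to 0.0215. Syt16, a relative thought not to bind calcium, fell at both ages, from 421 ± 21.9 to 359 ± 34.7 in adult rats (LFC -0.23, limma adjusted p = 0.0456) and from 408 ± 34.1 to 339 ± 28.7 in aged rats (SD, n = 5, LFC -0.27, adjusted p = 0.0491). Both calls were close to the threshold. The adult call was lost without adult EH rat 1, 2, 4 or 5 or adult DH rat 1, 2, 3 or 4 (adjusted p up to 0.113), and the aged call without aged EH rat 1, 4, 5 or 6 or aged DH rat 1, 2, 3 or 5 (up to 0.171).

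The other synaptotagmins were not called. Syt1, the main fast calcium sensor of forebrain synapses, had LFCs of -0.082 in adult DH (95% interval -0.16 to 0.00052), -0.11 in aged DH (-0.23 to 0.015) and 0.059 in ageing (-0.047 to 0.17). Syt10, known from activity-dependent peptide secretion, had wider intervals, from -0.41 to 0.33 in adult DH and from -0.46 to 0.0094 in aged DH.

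**Figure D2:**
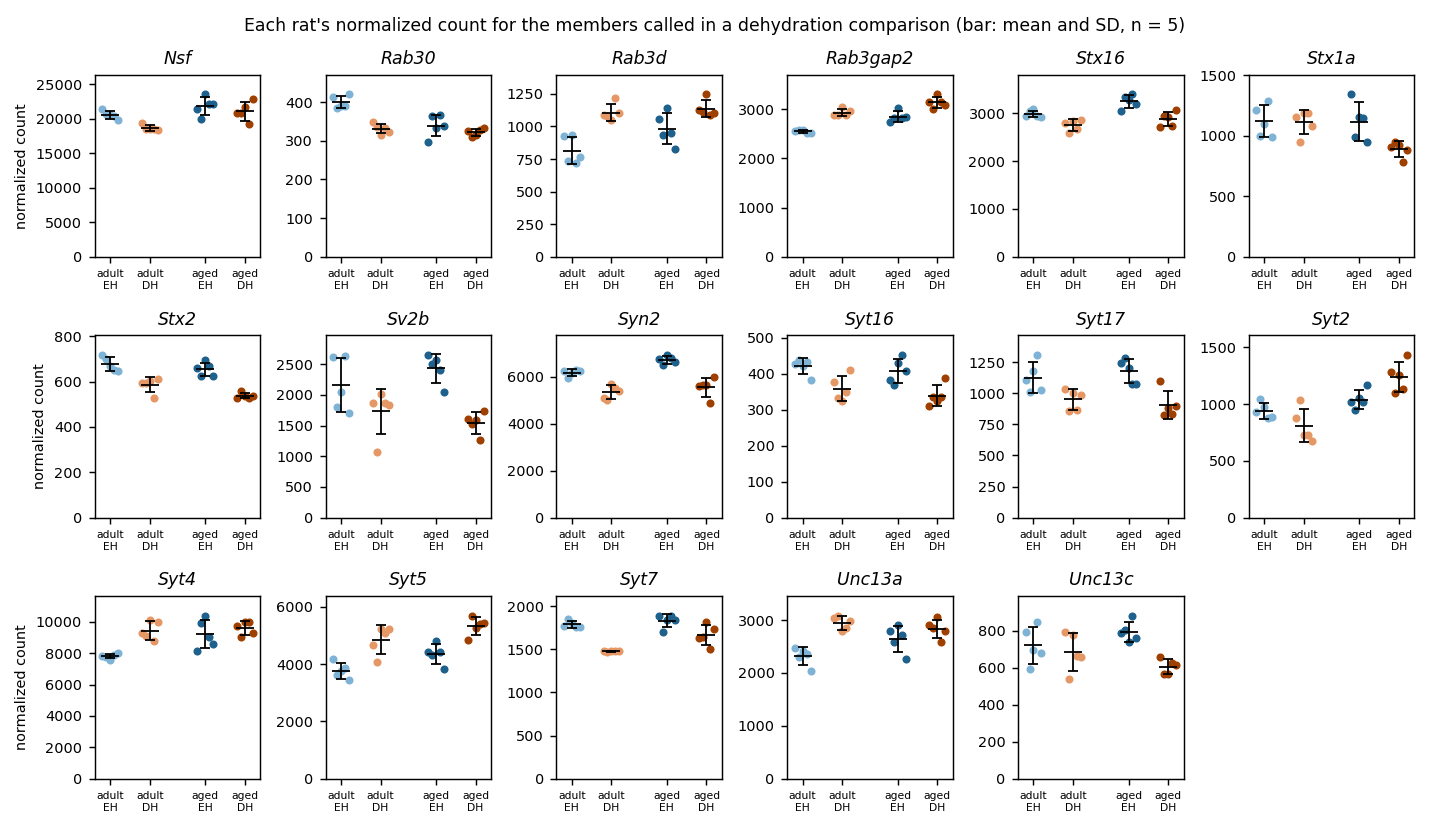
Normalized count of each rat (points) with the mean and SD (bars, n = 5) for the 17 members called in either DH comparison, in adult EH, adult DH, aged EH and aged DH. Each axis starts at 0, and adult and aged rats come from separately scaled tables. Syt7 in adult DH lies below every adult EH rat in all 5 rats, while Sv2b in aged DH lies below every aged EH rat.

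The promoters of Syt4 and Unc13a are shown because both genes rose in adult DH without overlap between the groups and because both hold more than 1 copy of the core of the cAMP response element, the site bound by CREB proteins. Sequences are from RefSeq on GRCr8, from 250 bases before to 50 bases after the start of the gene, on the strand of the gene. Capitals mark the core, TGACG, which here reads CGTCA since every copy is on the other strand. Syt4 is at chr18:23320814-23321113 (minus strand) and Unc13a at chr16:18415737-18416036 (minus strand).
Syt4: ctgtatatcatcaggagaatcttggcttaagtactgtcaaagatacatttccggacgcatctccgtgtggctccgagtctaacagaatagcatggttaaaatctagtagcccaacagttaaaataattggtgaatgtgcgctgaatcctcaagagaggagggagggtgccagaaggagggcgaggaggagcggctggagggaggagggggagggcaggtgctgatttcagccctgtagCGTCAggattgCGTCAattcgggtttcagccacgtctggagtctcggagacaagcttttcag
Unc13a: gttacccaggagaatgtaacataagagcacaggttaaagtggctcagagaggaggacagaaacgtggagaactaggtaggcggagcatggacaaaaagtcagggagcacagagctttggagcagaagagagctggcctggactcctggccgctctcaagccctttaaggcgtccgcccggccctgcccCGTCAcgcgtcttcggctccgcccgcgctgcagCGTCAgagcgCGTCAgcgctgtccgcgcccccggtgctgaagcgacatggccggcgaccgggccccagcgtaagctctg
The copies begin 12 bases and 1 base before the start site in Syt4, and 62, 29 and 19 bases before it in Unc13a. Searched on both strands, the core was in 21.2% of 33469 rat promoters of this length and in 22.9% of the 83 promoters found for 69 members. Of the 5 members called higher in a DH comparison that had an entry, 2 held it, and of 14 promoters of the 9 called lower 1 did. More than 1 copy was also found in members that were not called. These were Stx5, Stxbp3, Rab3b and Cplx1, and Vamp1 and Syn1 within the full element. The full element TGACGTCA was in 1.83% of all promoters and 2.41% of those of members. The AP-1 motif TGANTCA was in 7.33% and 1.20%, the NBRE motif AAAGGTCA in 1.43% and in none of 83. The EGR motif GCGNGGGCG was in 4.98% of all and in 15.7% of member promoters (13 of 83). The full element contains the core, and such matches describe letters in this window only.

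Priming and active zone genes number 10, with 1 higher in adult DH and 1 lower in aged DH. Unc13a, which encodes Munc13-1 and makes docked vesicles ready to fuse, was 2469, 2297, 2422, 2363 and 2040 in adult EH and 3043, 3083, 2792, 2846 and 2986 in adult DH. The lowest DH rat stood above the highest EH rat. The group means were 2318 ± 168 in EH and 2950 ± 126 in DH (SD, n = 5), and the LFC was 0.35 with a standard error of 0.049 (limma adjusted p = 4.45e-04). In aged rats Unc13a was 2792, 2579, 2900, 2711 and 2256 in EH and 2904, 2854, 3055, 2583 and 2793 in DH. Those groups overlapped and the LFC was 0.10 (95% interval -0.031 to 0.24, limma adjusted p = 0.375).

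Unc13c, which encodes Munc13-3, best known from the cerebellum, was 787, 803, 739.9, 879.6 and 760.4 in aged EH and 656, 566, 565, 624 and 612 in aged DH. All dehydrated rats lay below all EH rats. The LFC was -0.39 (standard error 0.060, limma adjusted p = 0.00178), and the call held under each of 17 alternatives. In adult rats its LFC was -0.078 (95% interval -0.32 to 0.16). Cadps and Cadps2, which prime dense-core vesicles, had LFCs of -0.021 and -0.045 in adult DH and 0.016 and -0.077 in aged DH. Their 95% intervals lay within a fold of 1.25 either way in all 3 comparisons, as did those of Rims1, the active zone scaffold that recruits Munc13, whose LFCs were 0.042 and -0.078. The related Rims2 did not overlap between adult DH and adult EH, with a mean of 1195 ± 24.2 against 1292 ± 49.5 (SD, n = 5), but its LFC of -0.11 was not called (limma adjusted p = 0.0592).

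The SNAREs of the vesicle were not called in any comparison, in 7 genes. Vamp2, the synaptobrevin of most synaptic and dense-core vesicles, had LFCs of 0.060 in adult DH (95% interval -0.0088 to 0.13), -0.031 in aged DH (-0.12 to 0.057) and 0.077 in ageing (0.0067 to 0.15). Its close relative Vamp1 had LFCs of -0.16 in adult DH (-0.30 to -0.011) and 0.16 in aged DH (0.039 to 0.29). The aged value of Vamp1 passed the test without aged DH rat 2, at a limma adjusted p of 0.0303 against 0.111 with all rats. Vamp7, a SNARE of endosomes and lysosomes, did not overlap between adult DH and adult EH and was not called (LFC -0.10, adjusted p = 0.162).

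Among the 8 genes grouped here as SNAREs of the plasma membrane, which include Snap29, Snap47 and Stx11, Stx2 fell at both ages and Stx1a in aged rats. Stx2, a relative of the neuronal syntaxins used in many cell types, was 718, 701, 669.6, 650.2 and 648 in adult EH and 595, 596, 604, 529.8 and 612 in adult DH. In aged rats it was 659, 627, 694, 668 and 623 in EH and 530.0, 557, 536, 529 and 538 in DH. At both ages every dehydrated rat lay below every EH rat. The LFC was -0.21 in adult rats (limma adjusted p = 0.0197, 0.0599 without adult EH rat 1) and -0.28 in aged rats (adjusted p = 0.00345).

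Stx1a, a syntaxin of transmitter release, was 1345, 989, 1158, 1148 and 947 in aged EH and 909.6, 952, 922, 782 and 882 in aged DH. EH rats 2 and 6 were close to the dehydrated rats, and rat 6 lay below the highest of them. The LFC of -0.32 was called (limma adjusted p = 0.0348), but not without aged EH rat 1, 4 or 5 or aged DH rat 1, 3, 5 or 6, with adjusted p up to 0.0963. In adult rats the Stx1a LFC was -0.0043 (95% interval -0.18 to 0.17).

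Proteins that bind or recycle SNAREs number 11, of which Nsf was called in adult DH and none in aged DH. Nsf, the ATPase that separates spent SNARE complexes, was 21488, 20756, 20535, 20364 and 19864 in adult EH and 19435, 18464, 18492, 18582 and 18449 in adult DH. Rat 1 stood above the other dehydrated rats and still below every EH rat. The LFC of -0.14, with a standard error of 0.028, was small and called under all 19 alternatives (limma adjusted p = 0.0052). In aged DH its LFC was -0.050 (95% interval -0.16 to 0.059). The complexins Cplx1 and Cplx2 were not called. Cplx1 had an LFC of 0.15 in aged DH (limma adjusted p = 0.157), which passed the test without aged EH rat 6 (0.00859), and of -0.062 in adult DH. Cplx2 had LFCs of 0.052 and 0.088.

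**Figure D3:**
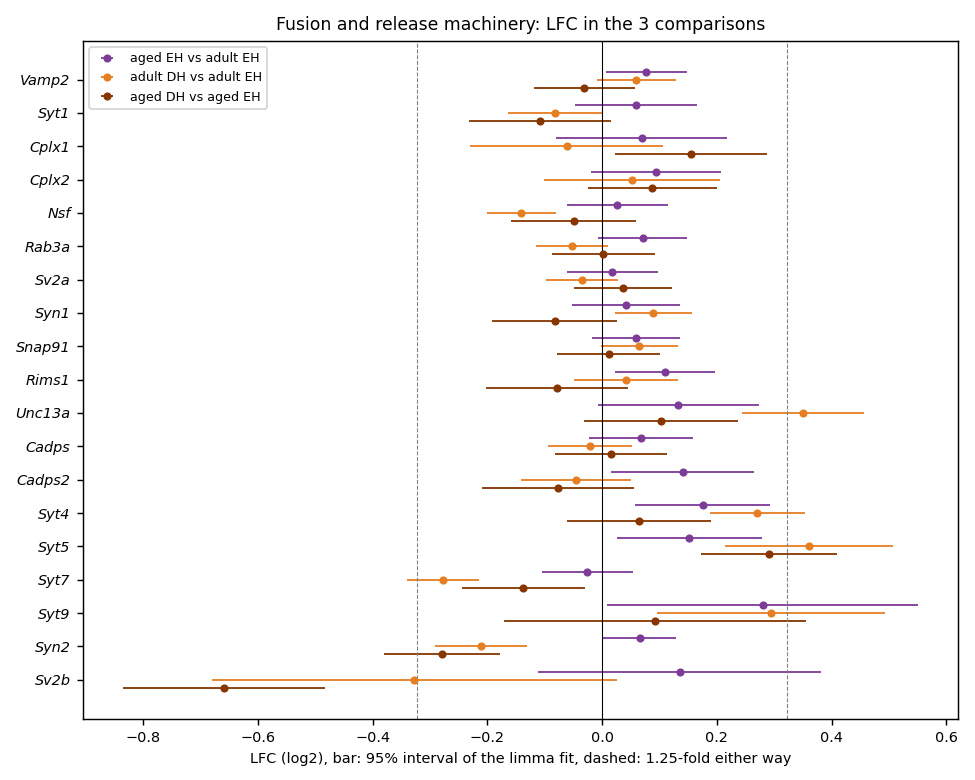
LFC (log2, points) with the 95% interval of the limma fit (bars) for 19 members of the fusion and release machinery in the 3 comparisons, named by colour. Dashed lines mark a fold of 1.25 either way, an LFC of 0.322. Vamp2, Syt1, Rab3a and Sv2a lie between the dashed lines in all 3 comparisons, whereas the interval of Sv2b in aged DH, -0.84 to -0.48, lies beyond them.

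Vesicle proteins number 7, of which Syn2 fell at both ages and Sv2b in aged rats. Sv2b, a glycoprotein of synaptic vesicles, was 2651, 2504, 2567, 2407 and 2039 in aged EH and 1605, 1523, 1596, 1259 and 1730 in aged DH. The dehydrated rats lay below all EH rats. The mean fell from 2434 ± 238 to 1543 ± 175 (SD, n = 5), with an LFC of -0.66 (standard error 0.082, limma adjusted p = 4.83e-04). In adult rats Sv2b was 2615, 1800, 2049, 2626 and 1697 in EH and 1860, 1078, 2012, 1860 and 1841 in DH. There it varied widely within both groups, and the LFC of -0.33 (95% interval -0.68 to 0.025) was not called. Its relatives Sv2a and Sv2c had LFCs of 0.036 (-0.050 to 0.12) and 0.025 (-0.25 to 0.30) in aged DH.

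Syn2, which tethers synaptic vesicles to each other and to actin, was 6268, 5940, 6155, 6287 and 6272 in adult EH and 5086, 5013, 5720, 5535 and 5403 in adult DH. In aged rats it was 6778, 6499, 6941, 6817 and 6622 in EH and 5601, 5650, 5657, 4872 and 6016 in DH. The groups did not overlap at either age. The LFC was -0.21 in adult rats (standard error 0.037, limma adjusted p = 0.00235) and -0.28 in aged rats (0.047, 0.00307), and both calls held under every alternative. Syn1, the most studied synapsin, had an LFC of 0.090 in adult DH, where its groups did not overlap (limma adjusted p = 0.0784, 0.0483 with DESeq2 on recovered reads), and -0.083 in aged DH (95% interval -0.19 to 0.026). Syn3 did not overlap between the adult groups either and was lower, at 250.3 ± 14.8 against 281 ± 7.80 (SD, n = 5), but was not called (adjusted p = 0.0994). Snap91, the clathrin adaptor AP180 of vesicle retrieval, was not called in any comparison.

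In aged DH some markers of neurons from outside the hypothalamus were called lower too. The summed level of 6 markers of excitatory neurons of the telencephalon was 1676 to 4062 normalized counts in aged EH and 864 to 1620 in aged DH, without overlap. Of the 6, 3 were called lower, Slc17a7 (LFC -1.92), Neurod6 (-2.49) and Neurod2 (-1.86), and none was at 0 in every library. In adult rats the sum was 953 to 3099 in EH and 920 to 2332 in DH and none of the 6 was called. Of the members lower in aged DH, Stx2, Stx16, Syt16 and Syn2 were called lower in adult DH too. Markers of 2 other lists were called in aged DH. Of 9 tested markers of all neurons 3 were called higher, Tubb3 (LFC 0.15), Nefh (0.29) and Uchl1 (0.20), with a summed level of the list of 122234 to 132416 normalized counts against 118719 to 126423 in aged EH. In that list 6 LFCs were above 0 and 3 below, those of Rbfox3 (-0.15), Nefl (-0.11) and Map2 (-0.068), which were not called. Tubb3 and Uchl1 were also called higher in adult DH. Of 8 oligodendrocyte markers, all with an LFC above 0, Mobp (0.35) was called higher, with a sum of 266697 to 316467 against 242856 to 293785. No marker of either list was at 0 in every library. The part of these cells in the values of Sv2b, Unc13c, Syt17, Syn2 and the other members lower in aged DH was not tested.

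**Figure D4:**
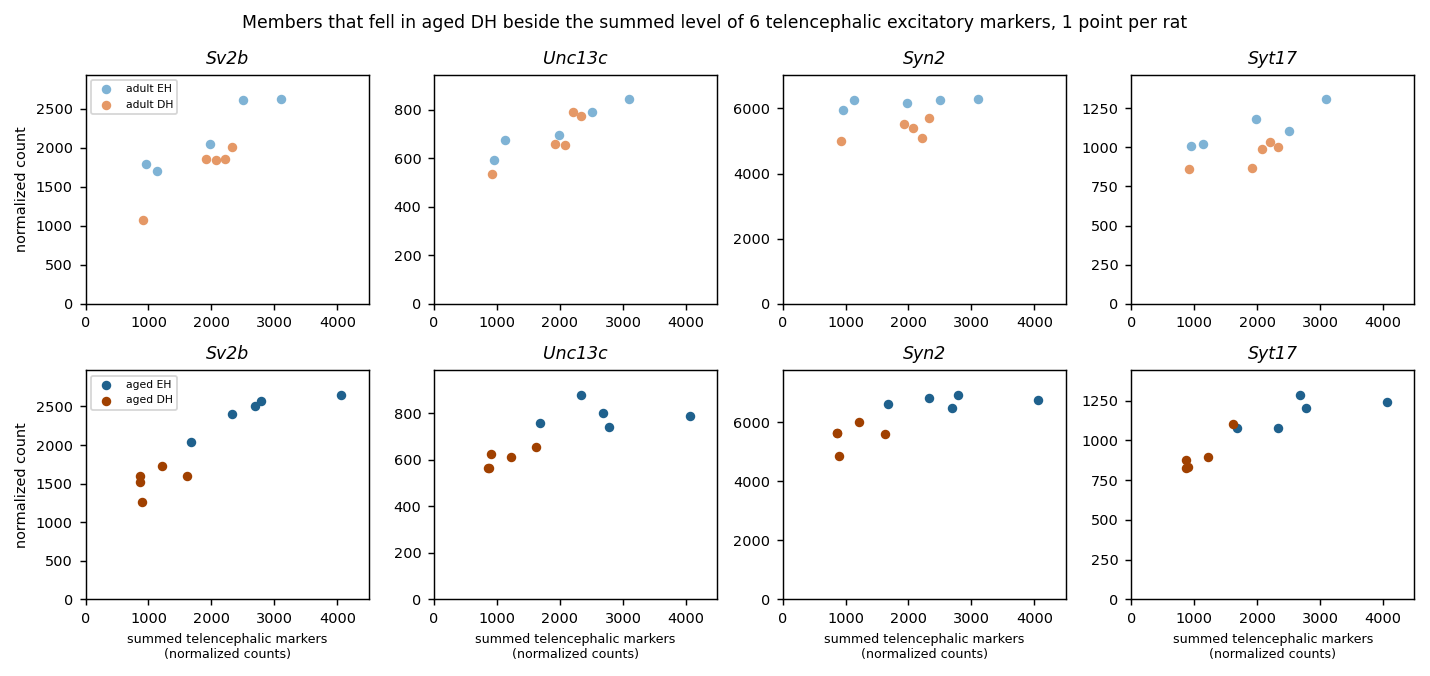
Normalized count of Sv2b, Unc13c, Syn2 and Syt17 (vertical axis) against the summed normalized counts of 6 telencephalic excitatory markers (horizontal axis) in each adult rat (top) and aged rat (bottom), coloured by group. In the aged rats the dehydrated group reaches a sum of 1620 and the EH group starts at 1676, whereas the adult groups overlap along the horizontal axis.

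Rab3 GTPases and their regulators number 8, with 2 higher in adult DH and 1 in aged DH. Rab3d, a Rab3 known from secretory granules of gland cells, had the highest LFC of the called members. Its values were 928, 734, 934, 717 and 765 in adult EH and 1087, 1078, 1047, 1221 and 1101 in adult DH, without overlap. The LFC was 0.45 (standard error 0.077, limma adjusted p = 0.00195). In aged rats Rab3d was 1057, 938, 1139, 947 and 831 in EH and 1127, 1114, 1249, 1088 and 1106 in DH, with overlap through the highest EH rat, number 4. That LFC of 0.22 was not called (limma adjusted p = 0.0916), but was without this rat, at 0.023.

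Rab3gap2, a subunit of the complex that switches Rab3 off, was 2551, 2580, 2581, 2524 and 2511 in adult EH and 2876, 2879, 3048, 2889 and 2966 in adult DH. The groups were narrow and well apart. The LFC was 0.20 (standard error 0.028, limma adjusted p = 3.72e-04). In aged rats it was 2740, 2827, 3019, 2829 and 2834 in EH and 3137, 3004, 3306, 3152 and 3076 in DH, where EH rat 4 lay above the lowest dehydrated rat. The LFC of 0.14 was called (limma adjusted p = 0.0359) but not without aged EH rat 1, 2, 5 or 6 or aged DH rat 1, 3 or 5, with adjusted p up to 0.0918. Its catalytic partner Rab3gap1 had LFCs of 0.038 and 0.024. Rab3a, the main Rab3 of synapses, had LFCs of -0.052 in adult DH (95% interval -0.11 to 0.010) and 0.0021 in aged DH (-0.087 to 0.092). Rab3c had 0.036 and -0.18, and the aged value was not called (limma adjusted p = 0.119), but was without aged DH rat 3, at 0.0452.

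Of the 8 syntaxins of the endoplasmic reticulum, Golgi and endosomes, Stx16 fell at both ages. Stx16, a SNARE of the trans-Golgi network that receives vesicles from endosomes, was 2938, 3038, 3079, 2934 and 2919 in adult EH and 2799, 2576, 2838, 2674 and 2863 in adult DH, without overlap. In aged rats its mean was 3248 ± 133 in EH and 2872 ± 151 in DH (SD, n = 5), with overlap. The LFC was -0.12 in adult rats (limma adjusted p = 0.0407) and -0.18 in aged rats (adjusted p = 0.0211). The adult call was lost without adult EH rat 1, 2, 4 or 5 or adult DH rat 1, 2 or 4 (adjusted p up to 0.112) and the aged call without aged EH rat 5 or aged DH rat 1 or 5 (up to 0.0688). Stx7, a SNARE of late endosomes, did not overlap between adult DH and adult EH, at 444 ± 13.3 against 490.1 ± 20.8 (SD, n = 5), but was not called (adjusted p = 0.0776).

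Of the 11 other Rab GTPases Rab30, a Rab of the Golgi, was called in 2 comparisons that share the adult EH rats. In adult DH it was 347, 337, 316, 332 and 323, against 412, 385, 389.5, 391 and 421 in adult EH (LFC -0.27, limma adjusted p = 0.00489). In the table of ageing it was 296, 363, 334, 366 and 341 in aged rats, against 429, 400.4, 407, 408 and 439 in adult ones (LFC -0.29, adjusted p = 0.0206). In neither comparison did the groups overlap, and both LFCs rest on the same adult EH rats. The ageing call was lost without adult EH rat 1 or 6, with adjusted p up to 0.0522. Between aged DH and aged EH the Rab30 LFC was -0.072 (95% interval -0.22 to 0.076). Rab31, an endosomal Rab, did not overlap between adult DH and adult EH, with an LFC of 0.10, and was not called (limma adjusted p = 0.0668).

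Most members, like most of all genes tested, varied little with water deprivation or age. Members and all genes were not matched for count level in the shares that follow. The 95% interval of the LFC lay within a fold of 1.25 either way for 62 of 86 members in adult DH (72.1%, against 62.4% of all genes), 64 of 87 in aged DH (73.6%, against 62.3%) and 67 of 86 in ageing (77.9%, against 63.6%). The median LFC of the members was -0.024 in adult DH, -0.0082 in aged DH and 0.052 in ageing, where over all genes tested it was -0.0073, -0.0030 and 0.0003. In adult DH 16 members did not overlap between the groups, where 10.9% of all genes did not, in aged DH 5 (7.05% of genes) and in ageing 3 (6.38%). The LFCs farthest from 0 among members that were not called belonged to genes with low counts, such as Rab38 in aged DH (-0.58, 95% interval -1.05 to -0.10) and Cplx3 in ageing (0.61, 0.14 to 1.07), which were chosen after their values were seen.

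In ageing 56 of 86 LFCs were above 0, where the median LFC of all genes was 0.0003, and none of the 56 was called. They included all 7 of the vesicle proteins, a role singled out after its values were seen. Besides Rab30, Rab3gap2 and Stx6, a SNARE of the trans-Golgi network, did not overlap between aged EH and adult EH. Rab3gap2 averaged 2657 ± 33.5 in adult EH against 2856 ± 101 in aged EH (SD, n = 5, LFC 0.10, limma adjusted p = 0.0785). Stx6 averaged 2072 ± 82.0 in adult EH against 1910 ± 39.1 in aged EH (LFC -0.12, adjusted p = 0.0714). Scaling to the column sums moved the median LFC of all genes by -0.030 in this comparison, and 2 members were then called, both lower. Of 8 oligodendrocyte markers 5 were called lower in aged EH, with a summed level of 243078 to 294229 normalized counts against 273148 to 398031 in adult EH. Of 6 microglial markers 3 were higher, with a sum of 5781 to 6890 against 4891 to 5528. Of 8 astrocyte markers 3 were lower, with a sum of 163613 to 194113 against 164549 to 196975. In that list Gfap (LFC 0.092) and S100b (0.064) were above 0 and not called. Of 4 endothelial markers tested Cdh5 (-0.35) was called lower and Flt1 (0.019) was above 0, with a sum of 8205 to 9522 against 8910 to 9629. None of these markers was at 0 in every library, and the part of these cells in the values of the members was not tested.

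The DH comparisons of the 2 ages have no rat in common. Of the 12 members called in adult DH 50.0% were called in aged DH too, and of the 11 called in aged DH 54.5% in adult DH, namely Syt5 and Rab3gap2, both higher, and Stx2, Stx16, Syt16 and Syn2, all lower. All 6 had the same direction at both ages. Over all genes 587 were called in both, 30.4% of those called in adult DH and 52.5% of those in aged DH. The LFC had the same sign at both ages in 68.6% of 86 members and in 66.5% of 15159 genes.

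Whether DH acted differently at each age was tested over all 20 rats, as the LFC of aged DH less that of adult DH. No member of 86 was called, nor any of 15326 genes (limma, 0 called). At an unadjusted p under 0.05 there were 15 members, where 9.93% of all genes passed, and the 95% interval lay within a fold of 1.25 either way for 55 members (64%, against 53.7% of all genes). The lowest p was that of Syt2, whose LFC was higher in aged than in adult rats by 0.48 (95% interval 0.21 to 0.76, limma adjusted p = 0.243). Next came Vamp1 (0.32, adjusted p = 0.272), Syt3 (0.16, 0.297), Unc13a (-0.25, 0.331) and Syn1 (-0.17, 0.362). Thus a member called at 1 age only, such as Syt7, Syt4, Unc13a, Rab3d, Sv2b or Unc13c, was not shown to respond differently at the other. For Syt7 the difference was 0.14 (95% interval 0.021 to 0.26), for Syt4 -0.21 (-0.36 to -0.051) and for Sv2b -0.33 (-0.75 to 0.088).

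**Figure D5:**
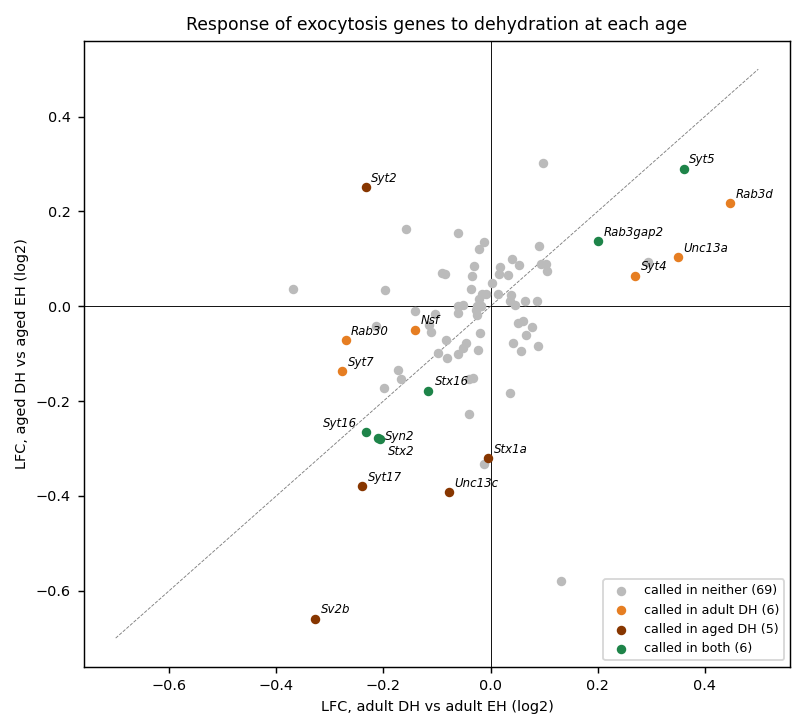
LFC of each of 86 members in adult DH (horizontal axis) and aged DH (vertical axis), both log2, with the members called in either comparison named and a dashed line of equal LFC. The 6 members called at both ages lie in the quadrants of equal sign, and Syt2 lies apart at -0.23 and 0.25.

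Beside the members, 63 other genes of vesicle release and retrieval were listed, 60 of them tested. In adult DH 6 were higher and 4 lower, in aged DH 3 and 5, and in ageing 4 and 0 (limma adjusted p under 0.05). Over all genes 7.67% were higher and 4.99% lower in adult DH, 4.05% and 3.25% in aged DH, and 2.69% and 3.30% in ageing. Of 7 genes of the dense-core vesicle 4 were called higher in adult DH and 3 in aged DH. Chgb and Scg5 had LFCs below 0 at both ages and were not called. These were -0.097 and -0.069 in adult DH, and -0.14 and -0.020 in aged DH. Scg2, a granin stored in dense-core vesicles, ran from 13288 to 15467 in adult EH and 22770 to 34879 in adult DH, without overlap (LFC 0.96, limma adjusted p = 8.83e-06). In aged rats it ran from 15300 to 19188 in EH and 24348 to 28375 in DH (LFC 0.62, adjusted p = 7.34e-05). Ptprn, a receptor-like protein of the dense-core vesicle membrane, had LFCs of 0.86 and 0.49, and Scg3, which binds granins to that membrane, 0.31 and 0.19. All 3 were also called higher in aged EH than in adult EH, with LFCs of 0.21, 0.28 and 0.16. Ptprn2, a relative of Ptprn, was called in adult DH (0.15).

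Rph3a (rabphilin), an effector of Rab27 and Rab3, and Doc2a, a calcium sensor of spontaneous release, fell at both ages. Rph3a ran from 6431 to 7179 in adult EH and 5084 to 5623 in adult DH (LFC -0.32, limma adjusted p = 7.72e-05), and its LFC in aged DH was -0.22 (adjusted p = 0.00176). Doc2a had LFCs of -0.43 and -0.52, and Baiap3, a Munc13 relative of dense-core vesicle trafficking, -0.25 in adult DH. Bsn, the active zone scaffold bassoon, was higher in adult DH (0.20), whereas Rimbp2, which links RIM to calcium channels, was lower in aged DH (-0.31). The vesicle protein Synpr (synaptoporin) was lower in aged DH, with an LFC of -0.97. Rimbp2, Rph3a, Doc2a and Synpr were thus lower in the comparison in which 3 of the 6 telencephalic markers were called lower. The part of those cells in the values of these genes was not tested. In membrane retrieval Amph (amphiphysin) was lower (-0.28) and Cltb, a clathrin light chain, higher (0.13) in adult DH. Napa, the adaptor that brings NSF to SNARE complexes, was higher in ageing (0.19). None of the 60 was called for the difference between the ages.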

How the data were processed

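Poly(A) RNA from SON punches of 20 rats, 5 in each of 4 groups, was measured by stranded 75 bp paired-end RNA sequencing. Per the labels and the study's methods the authors checked reads with FastQC, aligned them to Rn6 (STAR), assigned them to genes (featureCounts) and used DESeq2. No versions of FastQC, STAR or featureCounts were found in the sources. The signal deposited by the authors is the read count of a gene divided by the DESeq2 size factor of the library. There is 1 table for each comparison, scaled within that table. In the table of adult DH all values (100%) were whole multiples of 1 read within 0.1 read, so reads were recovered there. The authors' own columns of fold changes, test scores and p-values were not used, and all 30 per-sample columns were.

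The log2 of each normalized count, after adding 1, was analysed, so the LFC understates the change of low genes. Genes with a mean of at least 10 were fitted with limma 3.58.1 (R 4.3.3, empirical Bayes with a mean trend, two-sided, Benjamini-Hochberg over all genes tested, threshold 0.05, no fold filter). The difference between the ages was fitted over 20 rats, each from the DH table of its age. In simulated data 200 genes with a mean of at least 50 were changed by an LFC of 1 each. Of these limma recovered 98.0% in ageing (18 false calls), 97.5% in adult DH (11), 98.5% in aged DH (11) and 92.5% for the difference between the ages (7). Alternatives were a pseudocount of 10, no filter, a mean of at least 50, column sums, TMM, variance without a trend, a replicate block, each rat left out, and edgeR 4.0.16 and DESeq2 1.42.0 on recovered reads. Figures were drawn with matplotlib 3.10.9.

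Named are members called in a comparison, members whose groups do not overlap, a list of well-known members, those near the minimum of 10 and the 5 with the lowest p for the difference between the ages. Members and lists were chosen with earlier results of these data known. The symbols Snap23 and Snap25 were not analysed here. Gene positions are those of RefSeq on GRCr8 and are given for promoters only. Equal replicate numbers do not pair rats. Values of some single genes are not reported here.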

Additional observations from a re-analysis of the deposited data

Results flagged for a closer look

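For each member called in a DH comparison or in ageing, the 5 rats of each group were searched for a rat far from the others by Dixon's criterion. Of 48 groups 3 had one, where chance marks about 1 in 20. Nsf in adult DH rat 1 was 19435 normalized counts, where the other dehydrated rats ran from 18449 to 18582. Stx2 in adult DH rat 4 was 529.8, where the others ran from 594.9 to 611.7. Syt17 in aged DH rat 1 was 1100 (1099.87), where the others ran from 824.1 to 895.3. Without the rat concerned each of the 3 LFCs was still called by limma.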

How the results depend on the processing

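Fits across all genes were repeated under each alternative. The 12 members called in adult DH became 9 to 13 with each rat left out, and 18 when values were scaled to column sums or with DESeq2 on recovered reads. The 11 called in aged DH became 6 without a variance trend and 6 to 11 with each rat left out. The 1 called in ageing became 2 with column sums and 0 to 3 with each rat left out. DEGs (differentially expressed genes) numbered 921 in ageing, 516 without a variance trend and 594 to 906 with each rat left out, where the lowest came without adult EH rat 5. In aged DH there were 1119, with 671 and 678 to 1186, the lowest without aged DH rat 5 or aged EH rat 5 (678 and 679). For the difference between the ages there were 0 DEGs, 1 without a variance trend and 0 to 5 with each rat left out (5 without aged EH rat 6), and 0 members under every alternative. In adult DH leaving out a rat gave 1463 to 1743, where 1934 were called with all. Scaling to column sums moved the share of calls that were higher from 45.0% to 28.8% in ageing, from 60.6% to 43.4% in adult DH and from 55.5% to 47.3% in aged DH.

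The calls of Nsf, Rab3d, Rab3gap2, Syn2, Syt4, Syt5, Syt7 and Unc13a in adult DH, and of Sv2b, Syn2, Syt17, Syt5 and Unc13c in aged DH, held under each alternative run. No called value was reversed. Of 2720 values of single members under an alternative, 74 lost a call, 26 gained one and 71 uncalled values changed sign, none with an LFC beyond 0.0755 either way.

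Replicate numbers do not pair rats. Deviations of rats with the same number correlated by -0.048 to 0.124 in ageing, -0.083 to 0.134 in adult DH and -0.062 to 0.162 in aged DH. A replicate block gave 3 members in ageing, 10 in adult DH and 7 in aged DH, with 824, 987 and 653 DEGs, and 1 DEG for the difference between the ages. Under the block the calls of Stx2 at both ages and of Rab30 in adult DH were among those lost.

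Levels from separate tables carry separate scales. Recovery of changes smaller than an LFC of 1, or in genes with a mean under 50, was not simulated.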
